A study of Mus musculus with 10 samples.

Results

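Keratins are the intermediate filament proteins of epithelial cells, and 10 of the 53 protein-coding keratin genes in the count table were followed here, gene by gene and library by library. They were chosen by name: Krt12, Krt5, Krt14, Krt15, Krt13 and Krt4, which are keratins of stratified epithelia, and Krt19, Krt7, Krt8 and Krt18, which are keratins of simple epithelia. The table lists 55450 genes, 17729 had enough counts to be tested, and all 10 keratins were among them.

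The libraries hold messenger RNA from peelings of the corneal endothelium, the sheet of cells at the back of the cornea, of C57BL/6 mice at postnatal week 12. The mice were Slc4a11-/- (KO), with both copies of the solute carrier gene Slc4a11 disrupted, or Slc4a11+/+ (WT). There were 5 libraries per genotype, and each was a pool of peelings from 6 eyes of 3 animals, so p-values measure the spread between pools and not between animals. The labels name no promoter or cell type to which the disruption is limited, and no allele other than Slc4a11 and no treatment.

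Keratin filaments are built from pairs of a type I and a type II protein, and each kind of epithelium uses its own pairs. Krt5 and Krt14 form the pair of dividing basal cells, Krt12 is the type I keratin particular to the corneal epithelium at the front of the eye, Krt4 and Krt13 form the pair of moist mucosal linings such as the conjunctiva, and Krt8 and Krt18 form the pair of simple epithelia. The corneal endothelium is a simple sheet that in several species carries Krt8 and Krt18 beside vimentin, whereas a stratified epithelium lies on the other face of the cornea.

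Library depth was 36026193 to 51008996 counts, so 1 CPM (a count per library total, scaled to a common depth with TMM factors) stood for 36.7 to 50.6 counts. Slc4a11 had 114, 101, 92.6, 99.5 and 70.1 CPM in KO 1 to KO 5, against 3950, 4360, 3570, 3490 and 3600 CPM in WT 1 to WT 5. Every KO library lay below every WT library, in the direction of the labelled genotypes. The 14 genes of the corneal endothelium list, led by Aqp1, Col8a2 and Col8a1, summed to 23100 to 27600 CPM in KO and 23200 to 26700 CPM in WT libraries, and 1 was called higher (Car2), 2 lower (Atp1b1 and Ncam1) and 11 neither. The 12 keratocyte genes, led by the stromal proteoglycan gene Dcn, summed to 71700 to 96000 CPM in KO and 68500 to 105000 CPM in WT libraries, and 0 were called higher, 2 lower (Kera and Ptgds) and 10 neither. Over all genes tested, 7.59% were called higher and 7.73% lower.

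The keratins of stratified epithelia were uneven between pools. Krt12, Krt5, Krt14, Krt15, Krt13 and Krt4, and with them Krt19, all stood above the highest WT pool in KO 1, KO 2 and KO 5, a pattern shown by 11.6% of the genes tested. All 7, and Krt7, had their lowest KO level in KO 3, a pattern shown by 21.2% of the genes tested. Krt8 and Krt18 varied about as much between pools as the median gene. These libraries are bulk RNA, so a larger number of keratin-bearing cells and more keratin RNA per cell cannot be told apart.

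By edgeR's quasi-likelihood test with Benjamini-Hochberg adjustment over all genes tested, 5 of the 10 keratins were called higher in KO at an adjusted p under 0.05, against 7.59% of all genes tested. These were Krt5, Krt14, Krt15, Krt13 and Krt19. The count depended on the model and the pools: it was 0 with limma-voom and group quality weights, 0 with the replicate number as a block, and 2, Krt14 and Krt19, without WT 3 or WT 4. None was called lower, against 7.73% of all genes tested. By unadjusted p under 0.05 the count lower was 1, Krt8, and DESeq2 also called 0 lower. Of the 6 keratins of stratified epithelia 4 were called, with a median log2 fold change of 3.90, and of the 4 keratins of simple epithelia 1 was called, with a median of 0.21, beside a median of 0 over all genes tested. No keratin had all KO libraries above all WT libraries, which 5.88% of the genes tested did.

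**Figure D1:**
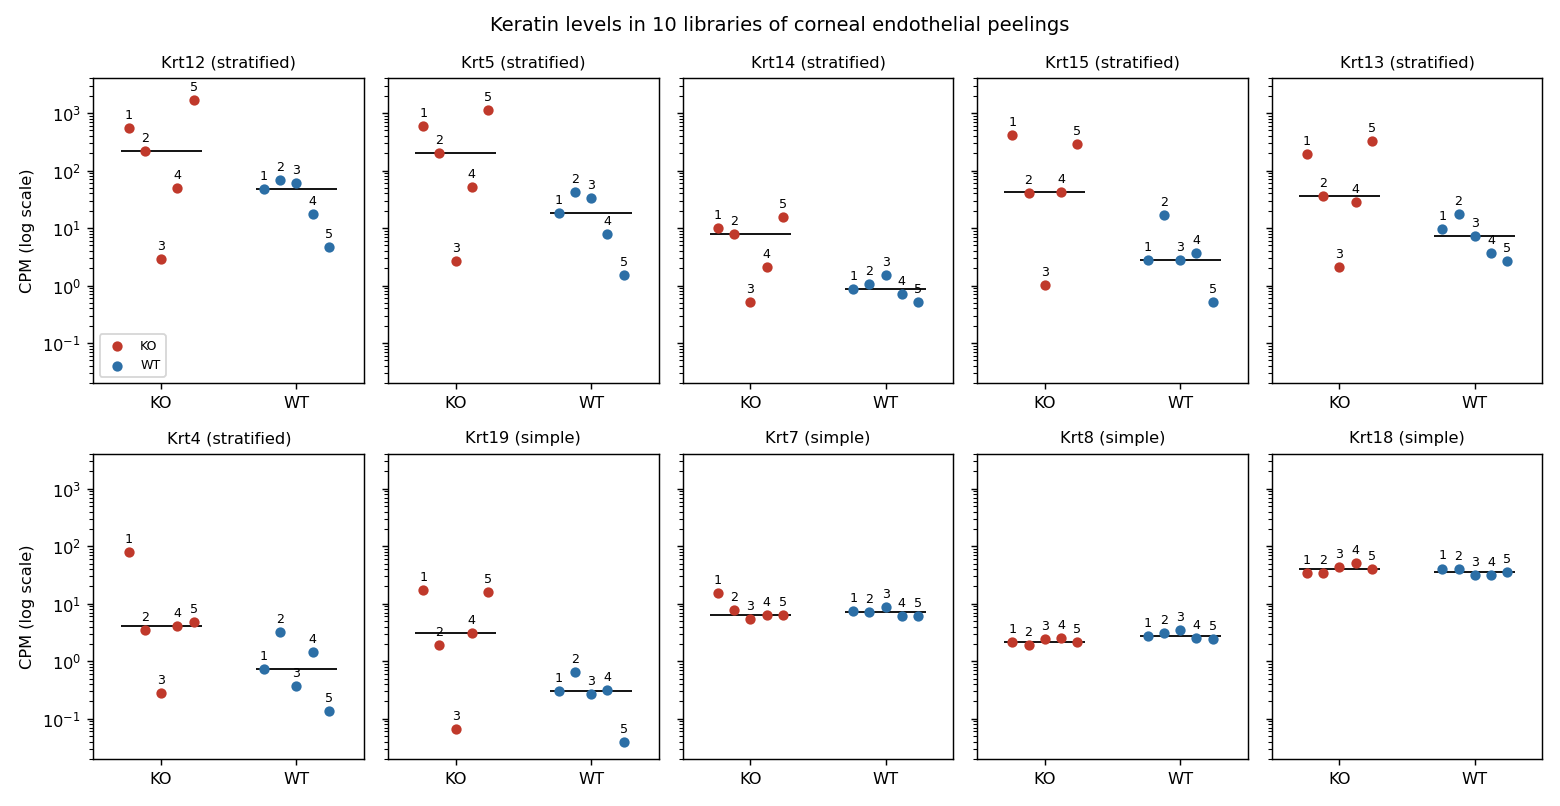
Level of each keratin in each library (CPM, log scale), with KO libraries left of WT libraries; numbers are the pool numbers and lines the group medians. In the 6 panels of stratified keratins and in that of Krt19, KO 1, KO 2 and KO 5 sit above all WT points and KO 3 sits among or below them, while the Krt7, Krt8 and Krt18 points overlap.

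Start regions are printed for Krt12 and Krt5, whose profiles over the pools were alike, and for Krt8 and Krt18, the simple pair. Each run covers 250 bases before to 50 bases after the annotated start, 5′ to 3′ on the gene's own strand, from RefSeq with the build GRCm38.p6. Motif positions count from these RefSeq starts, which for Krt8 and Krt18 lie inside the GENCODE gene coordinates given below. The windows are chr11:99422210-99422509 for Krt12, chr15:101712856-101713155 for Krt5, chr15:102004293-102004592 for Krt8, all on the minus strand, and chr15:102027966-102028265 for Krt18 on the plus strand. Capitals mark matches to any of 4 motifs searched on both strands.
Krt12: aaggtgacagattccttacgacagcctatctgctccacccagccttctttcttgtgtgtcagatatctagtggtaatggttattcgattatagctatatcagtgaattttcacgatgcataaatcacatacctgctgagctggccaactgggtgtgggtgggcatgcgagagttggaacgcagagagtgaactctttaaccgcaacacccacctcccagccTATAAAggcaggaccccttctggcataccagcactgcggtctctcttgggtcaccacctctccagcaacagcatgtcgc
Krt5: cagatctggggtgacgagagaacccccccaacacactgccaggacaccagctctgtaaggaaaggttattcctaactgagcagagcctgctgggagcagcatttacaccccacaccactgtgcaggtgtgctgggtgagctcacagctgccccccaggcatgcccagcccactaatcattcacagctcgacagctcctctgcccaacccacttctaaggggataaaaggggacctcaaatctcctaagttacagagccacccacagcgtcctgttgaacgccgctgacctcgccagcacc
Krt8: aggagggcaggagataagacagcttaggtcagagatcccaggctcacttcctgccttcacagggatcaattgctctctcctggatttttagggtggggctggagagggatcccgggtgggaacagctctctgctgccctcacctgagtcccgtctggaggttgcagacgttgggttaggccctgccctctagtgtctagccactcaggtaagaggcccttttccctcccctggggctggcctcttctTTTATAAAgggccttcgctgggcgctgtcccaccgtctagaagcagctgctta
Krt18: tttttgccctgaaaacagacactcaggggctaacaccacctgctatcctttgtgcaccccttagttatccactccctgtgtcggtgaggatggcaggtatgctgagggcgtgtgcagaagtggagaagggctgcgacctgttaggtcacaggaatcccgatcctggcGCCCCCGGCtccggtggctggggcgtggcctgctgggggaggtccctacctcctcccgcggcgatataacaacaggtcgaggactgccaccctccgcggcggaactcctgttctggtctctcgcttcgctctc

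The motifs were the TATA box (TATAAA), the AP-1 element (TGANTCA), the GC box (GGGCGG) and the AP-2 element (GCCNNNGGC). A TATA box match, a sequence at which the basal transcription machinery can assemble, began 29 bases before the start of Krt12. The Krt8 window held a pair of overlapping matches to the same letters on opposite strands, 3 and 1 bases before its start, and 13.6% of 32851 windows of this length hold that motif. The Krt18 window held an AP-2 match 83 bases before its start, as 16.6% of the windows do. The Krt5 window held none of the 4 motifs. Of the 10 keratins 7 were in the promoter table, and among the other 3 of these the Krt13 windows held AP-1 matches (7.81% of all windows), the Krt7 window held GC box (35.7%) and AP-2 matches, and the Krt14 window held none. A match is a string of letters and was not tested as a binding site.

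Krt12, which encodes the type I keratin of the differentiated corneal epithelium (ENSMUSG00000020912.4, chromosome 11, 99415666 to 99422259, minus strand, GRCm38), had 540, 221, 2.87, 50.5 and 1690 CPM in KO 1 to KO 5, against 47.4, 67.9, 60.5, 17.7 and 4.66 CPM in WT 1 to WT 5. KO 5, KO 1 and KO 2 stood above every WT library, KO 4 lay inside the WT range, and KO 3 lay below every WT library. The mean was 502 ± 698 CPM in KO and 39.6 ± 27.4 CPM in WT libraries (SD, n = 5 each), and the log2 fold change of 3.66 (SE 1.20) did not pass the test (adjusted p = 0.0593, edgeR). Without KO 3 it was 3.98 with an adjusted p of 0.0139, and without KO 5 it was 2.37 with an adjusted p of 0.153.

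Krt5, the type II keratin of basal cells (ENSMUSG00000061527.7, chromosome 15, 101707070 to 101712898, minus strand), had 593, 201, 2.69, 51.5 and 1120 CPM in KO 1 to KO 5, against 18.4, 42.9, 33.2, 7.75 and 1.52 CPM in WT 1 to WT 5. The KO libraries ranked as for Krt12, but KO 4 stood above every WT library and KO 3 lay above WT 5. Krt5 was 19.0-fold higher by the ratio of means, 394 ± 468 CPM in KO and 20.7 ± 17.2 CPM in WT libraries (SD, n = 5 each), and passed the test (log2 fold change 4.25, SE 1.22, adjusted p = 0.0357, edgeR). The call was lost when KO 1, KO 5 or any one of the WT libraries was left out, with log2 fold changes of 3.36 to 4.70 over all single omissions and a highest adjusted p of 0.0772.

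Krt14, the type I partner of Krt5 in basal cells (ENSMUSG00000045545.8, chromosome 11, 100203162 to 100207548, minus strand), was less abundant than Krt5 per kilobase in every library. It had 9.82, 7.92, 0.521, 2.07 and 15.3 CPM in KO 1 to KO 5, against 0.872, 1.07, 1.53, 0.712 and 0.514 CPM in WT 1 to WT 5. Of the KO libraries 4 lay above every WT library, and KO 3 lay between WT 5 and WT 4. Krt14 rose by 2.93 on the log2 scale (SE 0.69, adjusted p = 0.0155, edgeR), and it passed the test with any 1 library left out, at a highest adjusted p of 0.0431. The call was lost with limma-voom and group quality weights (2.26, adjusted p = 0.163) and with the replicate block (2.43, adjusted p = 0.103). Per kilobase of exon, Krt14 was 2.07%, 4.92%, 24.2%, 5.02% and 1.71% of Krt5 in KO 1 to KO 5, against 5.92%, 3.13%, 5.75%, 11.5% and 42.2% in WT 1 to WT 5. The highest of these shares stood in KO 3 and WT 5, the libraries with the least Krt5 in each group, and rest on 24 and 26 Krt14 counts.

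Krt15, a type I keratin of basal cells that is strong at the limbus, the stem cell rim of the cornea (ENSMUSG00000054146.8, chromosome 11, 100131758 to 100135928, minus strand), had 415, 40.0, 1.04, 42.8 and 291 CPM in KO 1 to KO 5. WT 1 to WT 5 had 2.78, 16.9, 2.78, 3.71 and 0.514 CPM. All KO libraries but KO 3 lay above every WT library, with KO 1 the highest, and KO 3 lay above WT 5 only. Of the 10 keratins Krt15 had the largest log2 fold change, 4.89 (SE 1.24, adjusted p = 0.0205, edgeR), and a ratio of means of 29.6. Without WT 3 the log2 fold change was 4.71 with an adjusted p of 0.0568, and without WT 4 it was 4.78 with an adjusted p of 0.0504.

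Krt13, the type I keratin of moist stratified linings (ENSMUSG00000044041.4, chromosome 11, 100117327 to 100121566, minus strand), had 192, 36.6, 2.11, 28.1 and 326 CPM in KO 1 to KO 5, against 9.49, 17.6, 7.40, 3.65 and 2.65 CPM in WT 1 to WT 5. The KO order was that of Krt12, and KO 4 again lay above the WT range while KO 3 lay below it. Krt13 rose by 3.85 on the log2 scale (SE 1.02, adjusted p = 0.0249, edgeR). The call was lost without KO 1, KO 5, WT 3, WT 4 or WT 5, with log2 fold changes of 3.60, 3.00, 3.81, 3.66 and 3.62 and adjusted p of 0.0524, 0.0508, 0.0624, 0.0582 and 0.0630 in that order.

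Krt4, the type II partner of Krt13 (ENSMUSG00000059668.6, chromosome 15, 101918535 to 101924735, minus strand), had 78.7, 3.52, 0.282, 4.16 and 4.90 CPM in KO 1 to KO 5, against 0.736, 3.24, 0.364, 1.47 and 0.138 CPM in WT 1 to WT 5. KO 1 stood far above the other 9 libraries, and KO 5, which led for Krt12, Krt5, Krt14 and Krt13, was close to KO 4 and KO 2 for Krt4. The log2 fold change of 3.94 (SE 1.24) did not pass the test (adjusted p = 0.0507, edgeR). It was 1.43 with an adjusted p of 0.267 without KO 1, and the gene was called without KO 2, KO 3 or KO 5 (adjusted p 0.0494, 0.0199 and 0.0484). Per kilobase, Krt4 was 35.0%, 8.22%, 11.4%, 12.6% and 1.28% of Krt13 in KO 1 to KO 5, against 6.62%, 15.7%, 4.20%, 34.3% and 4.46% in WT 1 to WT 5, so the 2 partners did not keep 1 proportion in either genotype. The shares in KO 3, WT 1, WT 3 and WT 5 rest on only 13, 27, 16 and 7 Krt4 counts.

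Krt19, a type I keratin of simple epithelia that also occurs in limbal and conjunctival cells and lacks most of the usual tail (ENSMUSG00000020911.14, chromosome 11, 100140810 to 100148665, minus strand), had the pattern of the stratified keratins. It had 17.4, 1.90, 0.0652, 3.09 and 16.2 CPM in KO 1 to KO 5, against 0.300, 0.648, 0.273, 0.314 and 0.0395 CPM in WT 1 to WT 5. KO 3 and WT 5 held only 3 and 2 counts, and the other KO libraries, with 90 to 731 counts, all lay above the WT libraries, with at most 29. Krt19 rose by 4.62 on the log2 scale (SE 1.06, adjusted p = 0.0131, edgeR), the smallest p of the 10 keratins, and was called with any 1 library left out (highest adjusted p 0.0380). The call was lost with limma-voom and group quality weights (adjusted p = 0.284) and with the replicate block (adjusted p = 0.081), and under a minimum of 1 CPM in 5 libraries the gene was not tested. Its order over the KO libraries, KO 1, KO 5, KO 4, KO 2 and KO 3 from high to low, was that of Krt15 and Krt4.

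Krt7, a type II keratin of ducts and other simple epithelia (ENSMUSG00000023039.17, chromosome 15, 101411043 to 101430313, plus strand), had 15.5, 7.88, 5.43, 6.47 and 6.28 CPM in KO 1 to KO 5, against 7.41, 7.18, 8.67, 6.12 and 6.08 CPM in WT 1 to WT 5. KO 1 stood above all other libraries, and the other 4 KO libraries overlapped the WT range or lay just below it. The log2 fold change was 0.23 (SE 0.25, adjusted p = 0.572, edgeR), and it was -0.12 without KO 1.

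Krt18, the type I keratin of simple epithelia (ENSMUSG00000023043.7, chromosome 15, 102028180 to 102032027, plus strand), had 34.8, 34.4, 44.2, 51.7 and 39.4 CPM in KO 1 to KO 5, against 41.0, 39.7, 31.3, 31.2 and 36.2 CPM in WT 1 to WT 5. Its highest levels stood in KO 4 and KO 3, the KO pools with the least Krt12, and the genotypes overlapped (40.9 ± 7.23 CPM in KO and 35.9 ± 4.58 CPM in WT libraries, SD, n = 5 each). The log2 fold change of 0.19 (SE 0.12) did not pass the test (adjusted p = 0.300, edgeR).

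Krt8, the type II partner of Krt18 (ENSMUSG00000049382.10, chromosome 15, 101996698 to 102004482, minus strand), had 2.17, 1.88, 2.46, 2.50 and 2.16 CPM in KO 1 to KO 5, against 2.78, 3.11, 3.48, 2.58 and 2.43 CPM in WT 1 to WT 5. The genotypes overlapped only in that KO 3 and KO 4 lay above WT 5, and the log2 fold change of -0.37 (SE 0.13) did not pass the test (adjusted p = 0.0833, edgeR). Of the 36-base words of Krt8 exons, 33.9% recur in other genes, mainly the pseudogene Krt8-ps, which had 3 to 11 counts per library beside 89 to 153 for Krt8.

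Summed over the 6 stratified keratins, KO 1 to KO 5 held 1830, 510, 9.52, 179 and 3450 CPM, against 79.7, 150, 106, 35.0 and 9.99 CPM in WT 1 to WT 5. The highest KO pool exceeded the lowest 363-fold, and the highest WT pool exceeded the lowest 15-fold. Summed over the 4 simple keratins, KO 1 to KO 5 held 70.0, 46.1, 52.2, 63.8 and 64.0 CPM, against 51.5, 50.6, 43.7, 40.2 and 44.8 CPM in WT 1 to WT 5. These ranges were 1.52-fold in KO and 1.28-fold in WT libraries. Krt18 was the largest part of each simple sum, so the narrow range does not hold for each member. Over the KO libraries Krt19 ranged 267-fold and Krt7 2.86-fold. Per kilobase, the stratified keratins stood at 25.6, 9.60, 0.151, 2.35 and 46.7 times the simple ones in KO 1 to KO 5, against 1.33, 2.54, 2.18, 0.760 and 0.194 times in WT 1 to WT 5. Thus the simple keratins outweighed the stratified ones in KO 3, WT 4 and WT 5, and KO 3 and WT 5 were close to each other. The long merged exon length of Krt7, 7049 bases, lowers the simple side of these ratios.

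**Figure D2:**
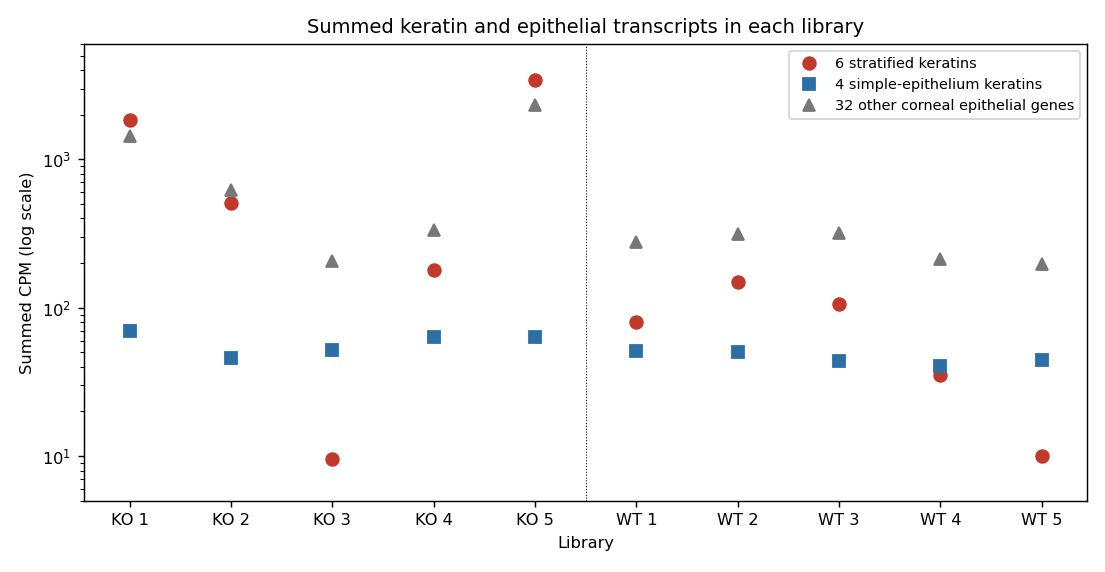
Summed CPM (log scale) of the 6 stratified keratins (red circles), the 4 simple-epithelium keratins (blue squares) and 32 other corneal epithelial genes (grey triangles) in each library, KO left of WT. The red circles run from 9.52 in KO 3 to 3450 in KO 5, while the blue squares stay between 40.2 and 70.0 in all 10 libraries. Krt18 is the largest part of each blue square.

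The range of log2 CPM over the 5 pools of a genotype was wide for the stratified keratins and Krt19 and narrow for Krt8 and Krt18. For the stratified keratins it was 4.76 to 9.18 in KO and 1.49 to 4.93 in WT libraries, with Krt12 the widest in KO and Krt15 the widest in WT. Krt19 spanned 7.30 in KO and 3.03 in WT libraries. Krt8 spanned 0.40 in KO and 0.51 in WT libraries and Krt18 0.59 in KO and 0.39 in WT libraries, beside medians over all genes tested of 0.39 in KO and 0.38 in WT libraries. Krt7 spanned 1.51 in KO libraries, more than 94.2% of the genes tested, with KO 1 at the top, and 0.51 in WT libraries.

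By mean CPM per kilobase the KO order was Krt12 (271), Krt5 (179), Krt15 (89.4), Krt13 (64.3), Krt18 (28.5), Krt4 (8.59), Krt19 (4.17), Krt14 (4.06), Krt7 (1.18) and Krt8 (1.14). In WT libraries it was Krt18 (25.0), Krt12 (21.4), Krt5 (9.44), Krt13 (4.48), Krt15 (3.02), Krt8 (1.47), Krt7 (1.01), Krt4 (0.558), Krt14 (0.534) and Krt19 (0.170). Krt12 stood above Krt5 in 5 of 5 KO and 5 of 5 WT libraries, the one step of the KO order that held in every KO pool. Neighbours that changed places between pools included Krt15 and Krt13 (Krt15 above in 3 of 5 KO libraries) and Krt19 and Krt14 (Krt19 above in 2 of 5 KO libraries). In WT libraries Krt18 stood above Krt12 in 3 of 5. The place of Krt7 rests on an exon length of 7049 bases, with all annotated exons merged, beside 1958 bases for Krt8. By mean CPM without length correction Krt7 stood above Krt8, at 8.32 against 2.23 in KO and 7.09 against 2.88 in WT libraries.

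Although Krt5 and Krt12 followed each other closely, their proportion differed by genotype in these pools. Per kilobase, Krt5 was 92.6%, 76.7%, 79.2%, 85.9% and 55.8% of Krt12 in KO 1 to KO 5, against 32.8%, 53.2%, 46.2%, 36.9% and 27.5% in WT 1 to WT 5, with no overlap. KO 3, with 124 Krt5 counts, and WT 5, with 77, had almost the same low stratified sum but shares of 79.2% and 27.5%. The ratio to Krt12 was higher in every KO than in every WT library for 1 of the other 17719 genes tested (0.00564%), the protease gene Tmprss11a, named after its values were seen. Most genes hardly varied between pools, so that most ratios to Krt12 were low where Krt12 was high. Among the 32 other corneal epithelial genes 0 had such a ratio, but some of them, such as Jup at 83.2 to 94.6 CPM in WT libraries, did not vary with Krt12. No p is given for this separation, which was found among 12 ratios computed between keratins, including Krt13 over Krt4 and its inverse.

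Other keratins did not keep a genotype-specific proportion to Krt12. Krt15 was 80.5%, 19.0%, 38.1%, 88.8% and 18.0% of Krt12 per kilobase in KO 1 to KO 5, against 6.15%, 26.2%, 4.81%, 21.9% and 11.5% in WT 1 to WT 5. KO 1 and KO 4 stood out as rich in Krt15 for their Krt12. Krt13 was 16.8% to 74.7% of Krt12 in KO and 12.4% to 57.7% in WT libraries, highest in KO 3, with WT 5 and KO 4 next. Krt19 stayed nearer to Krt15, at 4.00% to 6.88% of it in KO and 3.64% to 10.3% in WT libraries, with the genotypes overlapping.

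Krt8 was 4.57%, 3.99%, 4.07%, 3.54% and 4.02% of Krt18 per kilobase in KO 1 to KO 5, against 4.97%, 5.74%, 8.17%, 6.06% and 4.92% in WT 1 to WT 5. The ratio was lower in every KO than in every WT library, as was the ratio to Krt18 of 5.05% of the other genes tested. In all 10 libraries the type II partner was thus a small part of the type I partner by this measure.

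**Figure D3:**
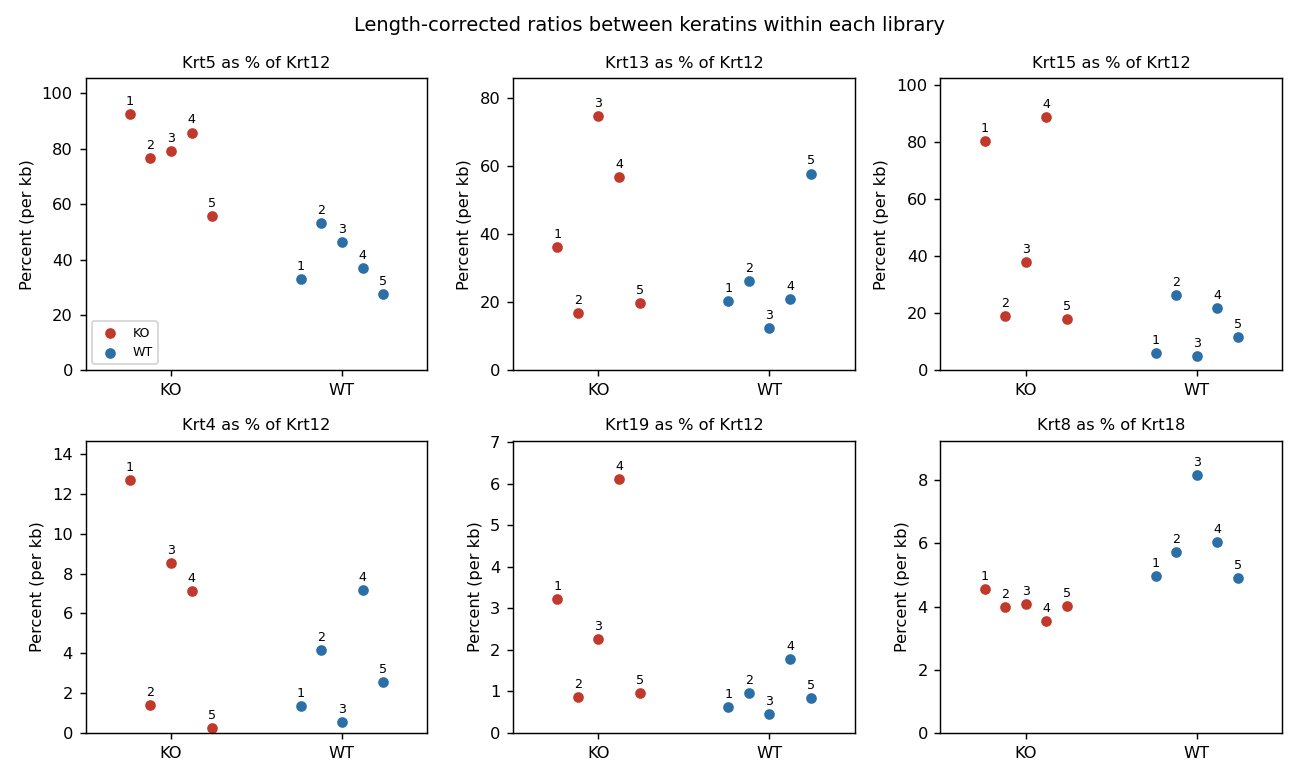
Length-corrected ratios between keratins in each library (percent), KO left of WT, with pool numbers. Krt5 as a percentage of Krt12 lies at 55.8 or above in KO and at 53.2 or below in WT libraries, Krt8 as a percentage of Krt18 lies at 4.57 or below in KO and at 4.92 or above in WT libraries, and the other 4 ratios overlap.

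The fit was repeated with KO 3 and KO 4 alone against the WT libraries, since KO 1, KO 2 and KO 5 held the most epithelial transcripts. Those pools were left out for their high levels, which included the keratins' own, so lower fold changes follow from the choice and the values only describe the remaining pools. The fit called 0 of the 10 keratins, against 5.99% of the 18435 genes tested there, and 2 had an unadjusted p under 0.05. The log2 fold changes were 0.39 for Krt5, 0.45 for Krt14, 0.90 for Krt13, 0.88 for Krt4 and -0.57 for Krt12, with adjusted p of 0.572 to 0.871 in edgeR. Those of Krt15 and Krt19 were 2.04 and 2.31 (adjusted p 0.317 and 0.187). Krt8 had -0.21, Krt18 0.43 and Krt7 -0.25, with adjusted p of 0.541, 0.0695 and 0.412. The 2 KO pools themselves differed, since KO 4 lay above every WT library for Krt5, Krt14, Krt15, Krt13, Krt4, Krt18 and Krt19, a position held by 24.3% of the genes tested, and KO 3 did so for Krt18 alone.

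**Figure D4:**
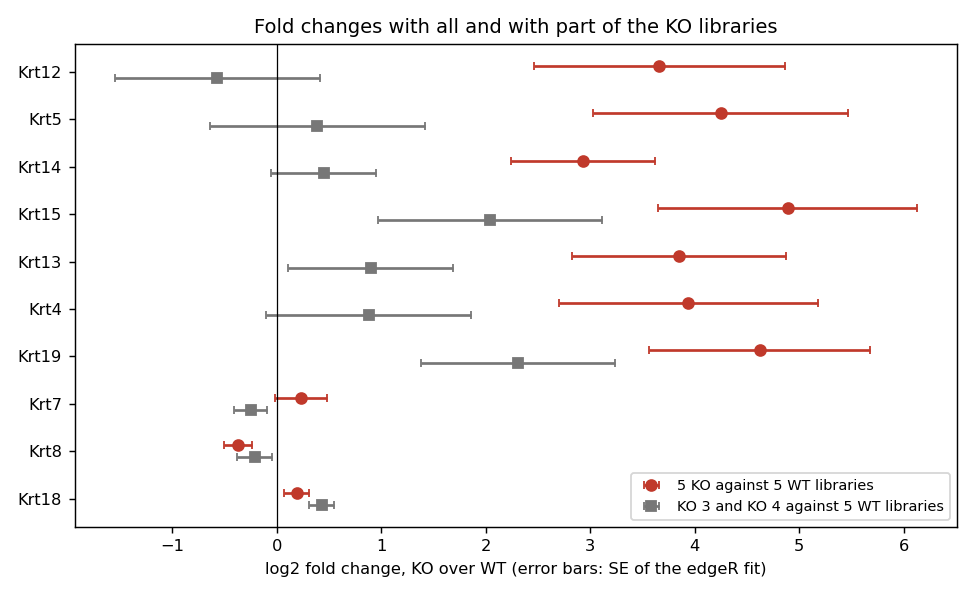
Log2 fold change of each keratin, KO over WT, with bars of 1 standard error from the edgeR fit, for all 5 KO libraries (red circles) and for KO 3 and KO 4 alone (grey squares). With all KO libraries the 6 stratified keratins and Krt19 lie between 2.93 and 4.89, and with KO 3 and KO 4 alone between -0.57 and 2.31, while Krt7, Krt8 and Krt18 stay within 0.43 of 0 in both.

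Corneal epithelial transcripts other than keratins moved with the stratified keratins. Of 32 such genes 19 were called higher, 0 lower and 13 neither, with a median log2 fold change of 2.44, and their sum was 1430, 627, 206, 335 and 2340 CPM in KO 1 to KO 5, against 279, 316, 320, 213 and 198 CPM in WT 1 to WT 5. For 29 of the 32, KO 1, KO 2 and KO 5 lay above every WT library, as for 11.6% of all genes tested. The shares called over all genes tested were 7.59% higher and 7.73% lower. Among the most abundant, the water channel gene Aqp5 (log2 fold change 3.96, adjusted p = 0.0428) and the junction gene Jup (0.50, adjusted p = 0.00441) rose, while Psca had 1.75 (adjusted p = 0.116) and the desmosome gene Dsp 0.91 (adjusted p = 0.105). Jup differed from the keratins in that every KO library, KO 3 included, lay above every WT library (108 to 150 against 83.2 to 94.6 CPM). Of all genes tested 5.88% had this separation. The part of these epithelial genes in the keratin differences was not tested.

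The lists for goblet cells and skin held genes without a count beside genes that were detected. Of 7 goblet cell genes of the conjunctiva, the mucin gene Muc5ac and the trefoil genes Tff1 and Tff2 had 0 counts in all libraries, 1 of 2 tested was called higher (Fcgbp, up to 4.48 CPM), and their sum was 0.999 to 5.14 CPM in KO and 0.672 to 1.5 CPM in WT libraries. Of 10 genes of skin differentiation, Flg and Sprr1b had 0 counts in all libraries, and 1 of 4 tested was called higher, the calmodulin-like gene Calml3, while the skin keratin Krt10 had 3.73 to 5.26 CPM over all libraries. Calml3 made up most of that list's sum of 9.54 to 441 CPM in KO and 10.6 to 40.1 CPM in WT libraries. Pigment cell genes (10, of which 5 were tested) gave 0 calls, with 4.62 to 17.3 CPM in KO and 3.67 to 8.35 CPM in WT libraries. Lens genes gave 2 calls higher and 0 lower of 5 tested, with 287 to 405 CPM in KO and 302 to 383 CPM in WT libraries, nearly all from Cryab. The lens genes called were Cryaa (log2 fold change 1.51, adjusted p = 0.02) and Bfsp2 (0.95, adjusted p = 0.0052), both at a few CPM. Lists of 2 to 5 tested genes are too short to set against the shares over all genes tested, 7.59% called higher and 7.73% lower.

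Among the other keratin genes, some were uneven between pools and others, such as the skin keratin Krt10, were not. This split thus did not strictly follow that of stratified and simple epithelia. Of 15 tested, 3 were called higher, 0 lower and 12 neither, beside 7.59% called higher and 7.73% called lower over all genes tested. Krt6a, a type II keratin of activated and suprabasal stratified cells, had 335, 67.7, 2.39, 34.8 and 631 CPM in KO 1 to KO 5, against 16.8, 26.7, 16.5, 7.12 and 3.16 CPM in WT 1 to WT 5 (log2 fold change 3.93, adjusted p = 0.0314, edgeR). Krt6b rose by 3.56 (adjusted p = 0.0344) and Krt76, a mucosal keratin, by 4.08 (adjusted p = 0.0229). Krt6a and Krt6b share 60.7% and 54.9% of their 36-base exon words with other genes, largely each other, so the division of reads between them is uncertain. Krt78 (3.57, adjusted p = 0.0504), Krt80 (2.04, adjusted p = 0.0681), Krt16 (1.83, adjusted p = 0.213) and Krt90 (1.47, adjusted p = 0.202) did not pass the test. Krt17 had a log2 fold change of 0.44 (adjusted p = 0.0866), with 4 of 5 KO libraries above every WT library, and was not called either. Krt222 (0.15), Krt10 (0.10), Krt27 (-0.19) and Krt20 (-0.20) were not called and had log2 fold changes between those of Krt8 and Krt18.

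Genes that anchor or regulate keratin filaments were partly among those called. Of 12 tested, 7 were called higher, 0 lower and 5 neither, beside 7.59% called higher and 7.73% called lower over all genes tested. Of these 7, 6 also stand in the corneal epithelial list, all but Pax6, so the counts are not separate. Those that rose included the plakin linkers Ppl (log2 fold change 1.86, adjusted p = 0.0287) and Evpl (2.49, adjusted p = 0.0246), and the transcription factor genes Trp63, the regulator of stratified epithelia (1.32, adjusted p = 0.0157), and Pax6, of the eye surface (3.22, adjusted p = 0.0338). The others that rose were Sfn, Grhl3 and Epcam. The broadly used linkers Plec (0.14, adjusted p = 0.247) and Dst (-0.35, adjusted p = 0.273) were not called. Of 8 other intermediate filament genes tested, 2 were called higher, 1 lower and 5 neither, beside the same shares over all genes tested. Nes (0.32, adjusted p = 0.0118) and the lamin gene Lmnb1 (0.49, adjusted p = 0.00194) rose. Vim, the vimentin gene of mesenchymal and endothelial cells, had 316 ± 37.5 CPM in KO and 438 ± 55.9 CPM in WT libraries (SD, n = 5 each) and fell by 0.47 on the log2 scale (adjusted p = 0.0094, edgeR).

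Genes with the most similar profiles were sought by the root mean square difference of centred log2 CPM over the 10 libraries, among 11451 genes with at least 5 CPM on average. Apart from Krt6a, with a WT mean of 14.1 CPM, the genes nearest to Krt12 and Krt5 passed that minimum through KO libraries. Their WT means were as low as 0.973 CPM for Cyp4a12b and 0.483 CPM for Dsc3. The minimum itself thus favoured their pattern, and the names are a description. Nearest to Krt12 were Cyp4a12b (0.41), Trim29 (0.47) and Krt6a (0.53), and nearest to Krt5 were Trim29 (0.36), Fam83a (0.46) and Dsc3 (0.47), beside median differences of 2.70 for Krt12 and 2.97 for Krt5. Krt8 was nearest to Tbc1d8 (0.075), Mum1l1 (0.083) and Zfp942 (0.094) and Krt18 to Slc46a1 (0.101), Riox1 (0.104) and Polr1c (0.106), all genes with narrow ranges. Those nearest to Krt8 had lower KO than WT means (6.7 against 8.37, 4.8 against 6.27 and 10 against 12.6 CPM). Those nearest to Krt18 had slightly higher KO means (8.98 against 7.58, 5.94 against 5.43 and 23.1 against 19.8 CPM). Among the 10 keratins, Krt12 and Krt5 differed by 0.58, Krt13 and Krt19 by 0.60, Krt15 and Krt19 by 0.65 and Krt8 and Krt18 by 0.34, beside 2.98 between Krt5 and Krt18. The median differences were only 0.275 for Krt8 and 0.253 for Krt18, so 0.34 does not mark these 2 as especially alike. Of the 10 keratins, the 5 on chromosome 11 all had the uneven profile of the stratified class. On chromosome 15 Krt5 and Krt4 had it too, Krt8 and Krt18 did not, and Krt7 lay between in its KO range. Beyond the 10, Krt16 on chromosome 11 ranged 418-fold over the KO libraries. Krt222, Krt10, Krt20, Krt17 and Krt27, on the same chromosome, ranged only 1.23-fold to 3.06-fold.

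Some levels carry a limit of counting. Krt12 shares 45.6% of its 36-base exon words, the highest share of the 10 keratins, with the overlapping antisense gene A830036E02Rik, which reached 0.450 CPM in KO and 0.112 CPM in WT libraries, and as no source used here says whether counting took account of strand, part of the Krt12 reads could not be assigned with certainty. The Krt12 levels and all ratios to Krt12 carry this limit. Krt14 shares 23.9% of its 36-base exon words with other keratins such as Krt16 and Krt17, and Krt5 shares 14.3%, mainly with Krt6a. For Krt13 and Krt19 no word was shared, and for Krt15, Krt4, Krt7 and Krt18 the share was 0.572% to 6.42%.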

How the data were processed

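Per the labels' protocols, corneal endothelial peelings were pooled, and libraries of polyadenylated RNA were made with a stranded kit and sequenced in paired-end mode. The values deposited by the authors are unnormalized counts of reads for each gene in each library. Per the submitters' processing notes, the genome was GRCm38.p6 and the tools were HISAT2 2.1.0, featureCounts of Subread 1.6.4, cutadapt 2.4 and Trim Galore 0.6.4. Strandedness, multimapping reads and the gene models used in counting are each not given in the sources used here, and all 3 could move reads between similar or overlapping genes.

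Symbols, coordinates and exon lengths came from GENCODE vM21. Counts were tested in R 4.3.3 with edgeR 4.0.16 (filterByExpr with minimum count 10 and total 15, TMM, quasi-likelihood test of KO against WT, no covariates), with Benjamini-Hochberg adjusted p under 0.05 over all genes tested as the threshold. The script was tested on simulated data. CPM used TMM-scaled totals, and CPM per kilobase used the exon length. Profile likeness used log2 CPM with a prior count of 2. Alternatives included other scalings and filters, DESeq2 1.42.0, limma-voom (limma 3.58.1), the replicate number as a block, and each library left out. Counting error is small above a few CPM, and PCR copies cannot be told from separate molecules because there are no molecular identifiers. No pair of libraries of a group agreed within sampling noise (14.7 to 87.5 chi-square units per degree of freedom).

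The keratins, gene lists, tests and alternatives were chosen with earlier results of these data known. Named were Slc4a11, the 10 keratins, other keratin genes averaging 1 CPM or more in KO or WT libraries, the 4 most abundant genes of each list, and the 3 genes most like Krt12, Krt5, Krt8 and Krt18. Genes outside this rule (Evpl, Sfn, Grhl3, Epcam, Trp63, Pax6, Lmnb1, Bfsp2, Car2, Ncam1, Ptgds, Tmprss11a and the genes at 0) were named after their values were seen.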

Additional observations from a re-analysis of the deposited data

Results flagged for a closer look

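Among 24 sets of 5 pools examined for a pool far from the rest (Dixon's ratio above its 95% critical value), 3 stood out. That value flags about 1 in 20 sets of normally distributed values. The ratios here were taken on CPM without a log scale, where wide ranges favour a flag, so the chance rate is not known. Krt4 was at 78.7 CPM in KO 1 with the next KO pool at 4.90 CPM, a gap of 0.941 of the range. Krt7 was at 15.5 CPM in KO 1 with the next KO pool at 7.88 CPM, a gap of 0.758 of the range. Krt15 was at 16.9 CPM in WT 2 with the next WT pool at 3.71 CPM, a gap of 0.806 of the range.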

How the results depend on the processing

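The count of keratins called higher was 5, and it was 5 to 7 with the size factors of DESeq2, upper quartile factors, total counts, DESeq2, no filter and a minimum of 1 CPM in 5 libraries. DESeq2 and the fit without a filter added Krt12, upper quartile factors, the fit without a filter and the 1 CPM minimum (adjusted p 0.0493) added Krt4, DESeq2 gave no adjusted p for Krt4, and Krt19 was not tested under the 1 CPM minimum, where the 5 called were thus not the same genes. The count was 0 with limma-voom and group quality weights and 0 at an adjusted p under 0.01. With KO 3 and KO 4 alone it was also 0. That fit left out the KO pools with the highest stratified keratin sums and held fewer pools. Fewer keratin calls thus follow from the choice and do not measure dependence on processing. With 1 library left out the count was 2 to 7: 2 without WT 3 or WT 4, 3 without KO 1 or WT 5, and 7 without KO 3. Krt14 and Krt19 were called in all 10 of these fits. The count of keratins called lower was 0 throughout. Over all genes, 1346 were called higher and 1370 lower, against 527 and 578 with KO 3 and KO 4 alone, a fit with fewer pools, and 450 and 574 at an adjusted p under 0.01. Without KO 1, WT 3 or WT 5, 895, 836 and 850 genes were called higher. Scaling by total counts gave 1555 higher and 1054 lower. No called keratin changed direction.

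With the replicate number as a block, 0 keratins were called higher, 5 had an unadjusted p under 0.05, and 750 genes were called higher. Same-numbered libraries did not deviate together (correlations -0.42 to 0.09), so no pairing by number was seen in expression. Whether same-numbered pools were collected or handled together cannot be told from these values. Counts under 3 per library limit what Krt19 shows in WT 5.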
